A study of Mus musculus with 52 samples.

Results

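F-box proteins are the subunits that choose the substrates of SCF ubiquitin ligases, and the promoters of their genes were followed in mouse embryonic stem cells (mESCs) before and after conditional deletions in the genes of KDM2A and KDM2B. The set held every measured promoter whose gene symbol begins with Fbxl, Fbxo or Fbxw and a number, Fbxl19 aside. This gave 64 promoters of the 20633 in the series, from 61 symbols. Of these, 18 belonged to Fbxl genes, 35 to Fbxo genes and 11 to Fbxw genes. Fbxw7 had 3 promoters and Fbxw2 had 2, numbered p1 onward in the direction of transcription. One symbol, Fbxl12os, is a transcript on the strand opposite Fbxl12 and not an F-box gene, and it is counted with Fbxl because its symbol met the rule.

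The assay was cATAC-seq, a calibrated ATAC-seq in which a fixed amount of Drosophila cells is added before transposition so that libraries can be scaled to the added chromatin. There were 4 mESC lines, all with an inducible CRE recombinase at Rosa26. Tamoxifen, given as 800 nM 4-hydroxytamoxifen for 96 hours, deleted the exons for the demethylase domain (JmjC) of both genes in Kdm2a/b-JmjC fl/fl cells. These cells lose the long forms of KDM2A and KDM2B, while the short forms, which start further downstream and never held JmjC, remain. Tamoxifen removed the ZF-CxxC DNA binding domain of both proteins in Kdm2a/b-CXXC fl/fl cells, of KDM2A in Kdm2a-CXXC fl/fl cells, and of KDM2B in Kdm2b-CXXC fl/fl cells. The Kdm2a/b-JmjC line came from targeted mice, whereas the Kdm2a-CXXC and Kdm2a/b-CXXC lines were made by CRISPR editing, the latter in Kdm2b-CXXC cells. Each line had 3 untreated and 3 tamoxifen libraries, except Kdm2a/b-CXXC with 4 and 4, for 26 ATAC libraries. Untreated cells of the same line were the control. No tamoxifen-treated cells without floxed alleles were analysed here, so tamoxifen and CRE themselves cannot be told apart from the deletions.

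In an SCF ligase, the F-box binds SKP1, which joins it to the scaffold CUL1 and the RING protein RBX1, and a second domain of the F-box protein binds the substrate. That domain is a set of leucine-rich repeats in FBXL proteins, WD40 repeats in FBXW proteins and some other fold in FBXO proteins. KDM2A and KDM2B themselves carry an F-box and leucine-rich repeats beside the JmjC domain, which demethylates H3K36, and the ZF-CxxC domain, which binds nonmethylated CpG dinucleotides at CpG island promoters.

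The sequences show how widely the promoters differed in CpG content. They are taken from RefSeq GRCm38.p6, which is the same assembly as mm10, and each lies within 150 bases upstream of the annotated start, read 5′ to 3′ on the strand of the gene, with every CpG in capitals. Shown are Fbxl20, an example gene of the study, and, by mean level over the 26 libraries, the least accessible promoter of each subfamily and the most accessible Fbxo and Fbxw promoters. The order of neighbours in level changed between lines. Fbxw7 p3 is added because Fbxw7 was the only gene with a run of Fbxw promoters within 1 Mb. Stretches that lie in exons of curated transcripts were left out, which shortened Fbxl8 to 63 bases and Fbxw7 p2 to 125. The whole 400 bp interval of Fbxl8 held 35 CpGs, so its short stretch does not show its CpG content. Predicted transcripts with earlier starts cover the Fbxl20 stretch and 11 bases of that of Fbxo47.
Fbxl20 (chr11:98149617-98149766, minus strand, 21 CpGs): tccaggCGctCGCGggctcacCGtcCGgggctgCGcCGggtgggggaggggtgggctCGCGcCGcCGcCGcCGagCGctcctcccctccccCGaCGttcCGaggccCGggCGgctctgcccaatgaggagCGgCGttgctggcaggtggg
Fbxl8 (chr8:105264498-105264560, plus strand, 3 CpGs): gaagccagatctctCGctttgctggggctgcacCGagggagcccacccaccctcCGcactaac
Fbxo47 (chr11:97884155-97884304, minus strand, 7 CpGs): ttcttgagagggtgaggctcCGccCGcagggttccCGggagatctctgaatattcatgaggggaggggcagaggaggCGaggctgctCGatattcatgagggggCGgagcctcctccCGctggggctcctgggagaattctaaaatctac
Fbxo40 (chr16:36979137-36979286, minus strand, 1 CpG): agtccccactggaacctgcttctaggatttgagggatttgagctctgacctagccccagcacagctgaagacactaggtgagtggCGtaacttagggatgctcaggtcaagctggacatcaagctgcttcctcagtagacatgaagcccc
Fbxw11 (chr11:32642405-32642554, plus strand, 17 CpGs): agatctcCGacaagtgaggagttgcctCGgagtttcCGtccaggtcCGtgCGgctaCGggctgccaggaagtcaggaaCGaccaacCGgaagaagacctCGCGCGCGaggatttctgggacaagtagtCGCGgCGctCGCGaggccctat
Fbxw7 p2 (chr3:84864012-84864136, plus strand, 0 CpGs): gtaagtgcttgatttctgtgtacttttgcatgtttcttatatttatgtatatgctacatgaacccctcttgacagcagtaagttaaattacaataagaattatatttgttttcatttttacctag
Fbxw7 p3 (chr3:84952061-84952210, plus strand, 5 CpGs): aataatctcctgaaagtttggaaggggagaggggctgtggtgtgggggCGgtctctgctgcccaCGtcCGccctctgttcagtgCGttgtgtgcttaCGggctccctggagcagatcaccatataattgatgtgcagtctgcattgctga
Fbxl20 and Fbxw11 were thus dense in CpGs, whereas Fbxo40 and Fbxw7 p2 were nearly free of them. The 3 Fbxw7 intervals had little sequence in common, with at most 4 words of 8 bases shared between any pair.

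All intervals were 400 bp long, so levels are per equal length. They were not corrected for the sequence preference of the transposase or for mappability, and the part of either was not tested. Libraries held 1.49 to 3.03 M promoter reads (M, 1000000), and the median promoter held 58 to 108 reads. Of 7 stem cell genes with a promoter, 5 were above the median of all promoters, among them Nanog and Sox2. Pou5f1 lay at the 48.1 percentile and the higher Esrrb promoter at the 40.6 percentile. None of the 10 measured marker genes of other cell types had a promoter above the median. The summed level of those 10 genes was 75.0 to 116 reads per 1000000 promoter reads in untreated libraries and 79.2 to 113 after tamoxifen. In Kdm2b-CXXC, untreated replicate 1 and tamoxifen replicate 1 had calibrated totals of 2.96 and 3.19 M against 1.75 to 2.12 M in the other 4 libraries, and results of that line are also given without both. The lines were calibrated separately, so changes were tested only within a line.

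F-box promoters were mostly open. The level of a promoter was its mean over the 26 libraries in reads per 1000000 promoter reads (RPM), and a promoter was called open at or above the median of all promoters (39.3) and closed below the 25th percentile (8.10). By these cuts 44 of the 64 F-box promoters were open, 16 were intermediate and 4 were closed, that is 68.8% open and 6.25% closed against 50% and 25% of all promoters. The median F-box promoter had 63.7 RPM. These shares are set against those of CpG-rich promoters below. Just inside the open class was Fbxl7 at 39.7 RPM, and just outside it was Fbxo2 at 39.2.

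The subfamilies stood in the order Fbxl, Fbxo, Fbxw. Fbxl promoters had a median of 74.3 RPM, 16 of 18 were open and 0 were closed. Fbxo promoters had a median of 61.1, with 25 of 35 open and 2 closed. Fbxw promoters had a median of 33.0, with 3 of 11 open and 2 closed. The subfamilies overlapped, with lowest promoters at 34.7 (Fbxl), 3.20 (Fbxo) and 1.42 (Fbxw) and open promoters in each, and no test was made of this order because promoters are not replicates.

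**Figure D1:**
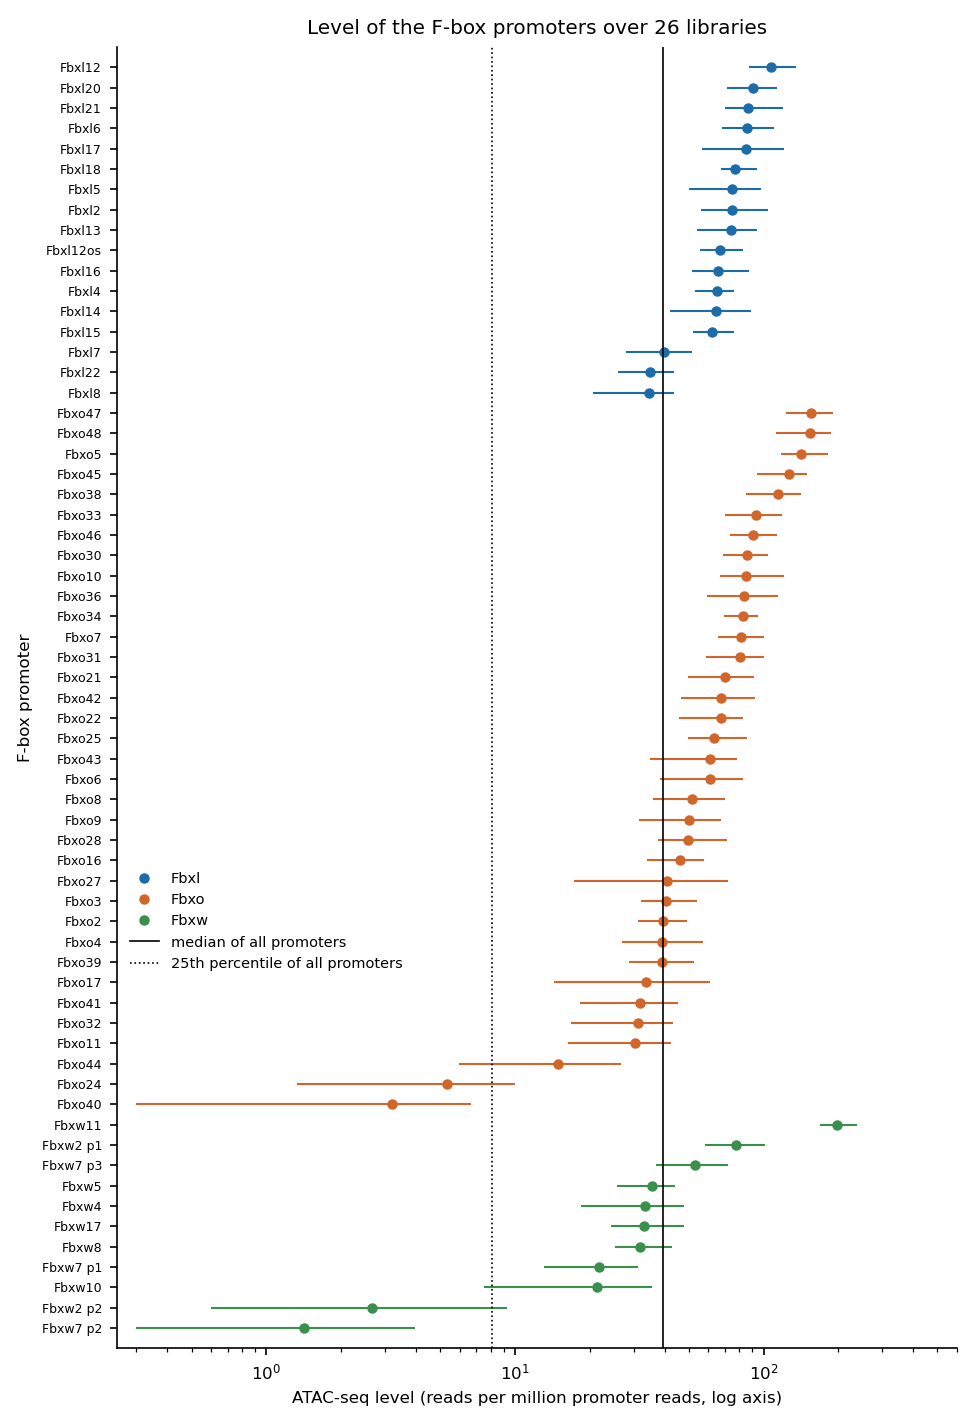
ATAC-seq level of 63 of the 64 F-box promoters in RPM (reads per 1000000 promoter reads) on a log axis, grouped by subfamily. Points are means and lines run from the lowest to the highest of 26 libraries (a lowest value of 0 is drawn at the left end); 43 points lie at or above the median of all promoters and 4 lie below the 25th percentile.

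Among Fbxl promoters, Fbxl12 and Fbxl20 were near the top. Fbxl12 ranged from 87.5 to 135 with a median of 106. Fbxl20, whose product acts at synapses, ranged from 71.2 to 114 with a median of 91.3. The libraries of Fbxl12 and Fbxl20 overlapped. The lowest Fbxl promoters were Fbxl8 (mean 34.7), Fbxl22 (35.0) and Fbxl7 (39.7), whose ranges overlapped.

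Among Fbxo promoters, Fbxo47 and Fbxo48 were the highest and could not be ranked against each other. Fbxo47, a gene required for meiosis in mouse germ cells, had 124 to 191 RPM with a median of 155. The Fbxo48 promoter, whose interval overlaps that of the noncoding gene Eldr, had 112 to 186 with a median of 155. Fbxo5, which encodes the inhibitor EMI1 of the anaphase-promoting complex, followed with 118 to 181 and a median of 140. At the other end, Fbxo40, a muscle gene whose product degrades IRS1, had 0 to 6.64 RPM with a median of 3.43. Fbxo24, active in the testis, had 1.33 to 9.99 with a median of 4.84. Fbxo44, listed here for glycoprotein binding, had 5.95 to 26.7 with a median of 15.3. The highest library of Fbxo40 lay far below the lowest of Fbxo47.

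Among Fbxw promoters, Fbxw11 was the most open of all 64. It encodes β-TrCP2, which recognises phosphorylated β-catenin and IκB, and it had 168 to 237 RPM with a median of 194. Fbxw2 and Fbxw7 each had promoters of very different level. Fbxw2 p1 (chr2:34826036-34826435) had a median of 74.4 RPM and a lowest library of 58.2, whereas p2 (chr2:34822982-34823381) had a median of 2.57 and a highest library of 9.27. FBXW7 degrades cyclin E and MYC, and its most upstream promoter p1 (chr3:84815377-84815776) had 13.1 to 31.2 RPM. Its promoter p2 (chr3:84863945-84864344) had 0 to 3.97, and p3 (chr3:84952011-84952410) had 36.9 to 72.1. For both genes the libraries of the open promoter did not overlap those of the closed one, so each gene had both an open and a closed annotated start.

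By function, 4 of 7 cell cycle promoters were open, with Fbxw11, Fbxo5, Fbxo31 and Fbxw7 p3 at 198, 141, 80.5 and 53.2 RPM and Fbxo4 at 39.0. Fbxl21, listed for the circadian clock, was open at 86.3. Of the 5 promoters listed for glycoprotein binding 2 were open, Fbxo6 at 60.7 and Fbxo27 at 41.0. Fbxo2, Fbxo17 and Fbxo44 were intermediate at 39.2, 33.7 and 14.9. The muscle pair held Fbxo32, which encodes atrogin-1 and was intermediate at 31.4, and the closed Fbxo40. The germ cell and oocyte group covered the whole range, from Fbxo47 (155) and Fbxo43 (61.1), which encodes the meiotic inhibitor EMI2, through Fbxo39 (38.9) to Fbxo24 (5.33). Genes named for muscle were thus not open, whereas those named for germ cells fell in all 3 classes.

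The genes that work with F-box proteins were open at nearly every promoter. Of 13 promoters of SCF core and neddylation genes, 12 were open, from Ube2m at 42.8 RPM to Uba3 at 140, with Cul1 at 62.9, Rbx1 and Skp1 both at 110. The other was a closed second promoter of Dcun1d1 at 6.05. Of 7 promoters of F-box genes that carry other names (Skp2, Btrc, Ccnf, Kdm2a and Kdm2b), 5 were open, led by Ccnf at 157. Kdm2b had an open promoter at 84.5 and an intermediate one at 19.4.

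CpG content separated the closed promoters from the rest. A promoter was called CpG-rich when G and C made up 50% or more of its 400 bp and its CpGs numbered 0.6 or more of those that its base composition predicts (the CpG ratio). This held for 52 of the 64 F-box promoters (81.2%) against 54.6% of all promoters, and for 16 of 18 Fbxl, 29 of 35 Fbxo and 7 of 11 Fbxw promoters. Of the CpG-rich F-box promoters 39 (75%) were open, against 81.1% of all CpG-rich promoters, with medians of 66.9 and 69.7 RPM. Among CpG-rich promoters, F-box promoters were thus not more often open than the rest. None of the 4 closed F-box promoters was CpG-rich: Fbxw2 p2 and Fbxw7 p2 had 1 CpG each, Fbxo40 had 3 and Fbxo24 had 5. Of the 12 promoters that were not CpG-rich, 5 were nevertheless open (41.7%), against 12.6% of all promoters that were not CpG-rich. These were Fbxl12 (ratio 0.521), Fbxo46 (0.599, just under the cut), Fbxw7 p3 (0.469), Fbxo27 (0.529) and Fbxo16 (0.288). Across the 64 promoters, Spearman's rho between CpG ratio and level was 0.466, against 0.754 across all promoters. Promoters are not independent, share libraries and differ in base composition, so rho is a description.

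**Figure D2:**
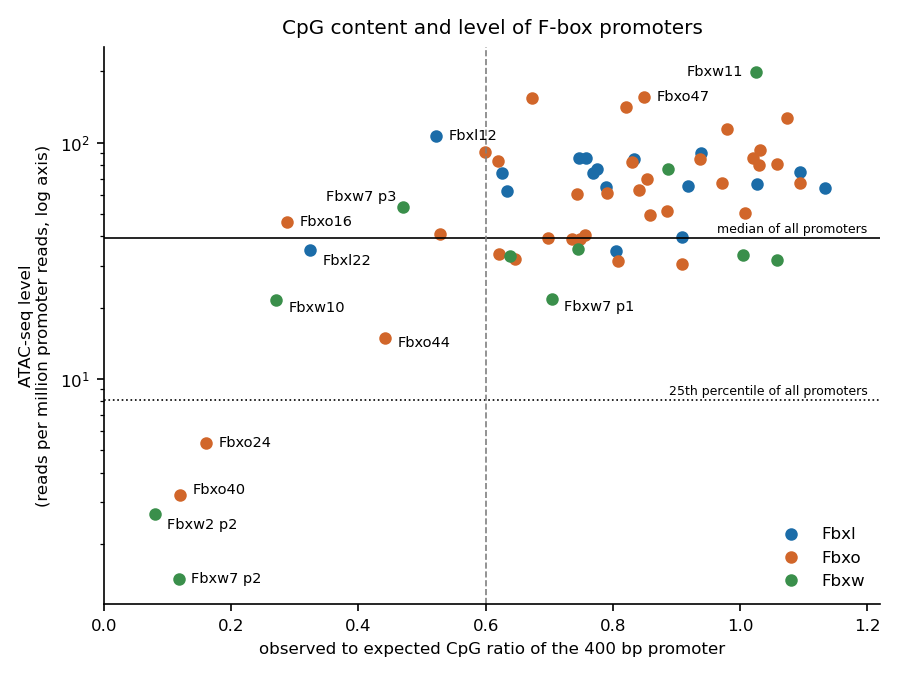
Level of 63 F-box promoters in RPM (log axis) against its CpG ratio (observed over expected), colored by subfamily. The 4 closed promoters all have ratios under 0.2; the dashed line marks the ratio of 0.6 and the horizontal lines the median and 25th percentile of all promoters.

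The GC box GGGCGG, searched on both strands of the 400 bp, was present in 50 of the 64 F-box promoters (78.1%) against 56.3% of all promoters. It was found in 38 of 44 open and in 0 of 4 closed ones, against 80.7% of all open and 8.87% of all closed promoters. By subfamily it was in 16 of 18 Fbxl, 28 of 35 Fbxo and 6 of 11 Fbxw promoters. CCGGAAG, a core bound by ETS factors, was present in 18 (28.1%) against 14.1% of all promoters. It was in 14 of 44 open F-box promoters, against 23.2% of all open ones, and in 4 of 16 intermediate ones, against 7.25%. CCAAT was present in 22 (34.4%) against 40.0%, among them 16 of 44 open, 3 of 16 intermediate and 3 of 4 closed ones. It was in 42.0%, 32.5% and 43.7% of all open, intermediate and closed promoters. GCATGCGC, part of the NRF1 motif, was present in 4 (6.25%) against 3.93%, and TATAAA in 5 (7.81%) against 10.4%. Of the 5 with TATAAA, 2 were open and 2 were closed, and TATAAA was in 4.65% of all open and 23.4% of all closed promoters. Letters in a window are a description and do not show binding.

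Several F-box genes shared a promoter region with a neighbour. A coding gene on the opposite strand started upstream within 1000 bp of the centre of 10 of the 64 intervals (15.6%), against 8.69% of all intervals. The shares were closer within a class: 18.2% of open F-box promoters against 15.1% of all open ones, and 19.2% against 13.3% among CpG-rich ones. Examples were Fbxo45 with Wdr53, Fbxl6 with Slc52a2, Fbxl8 with Tradd and Fbxo2 with Fbxo44. The intervals of 7 F-box promoters overlapped that of another gene, so reads there may belong to either start. All 10 with such a coding neighbour were CpG-rich and 8 were open, against 83.4% and 86.9% of all promoters with one.

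The order of levels was similar in the 4 untreated lines. Spearman's rho of untreated levels over the 64 promoters lay between 0.925 and 0.974 for the 6 pairs of lines, which share the same intervals. The ratio of the highest to the lowest line had a median of 1.23 over the 44 open F-box promoters and also 1.23 over all open promoters. Among the open F-box promoters reported here it exceeded 2 at Fbxo27, and it did so at 2.29% of all open promoters. Fbxo27 and its neighbour Fbxo17 were singled out after their values were seen.

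Fbxo27 and Fbxo17, neighbours on chromosome 7, varied between lines. Untreated Fbxo17 had 48.0 ± 10.4 RPM in Kdm2a/b-CXXC (SD, n = 4), 35.4 ± 10.5 in Kdm2b-CXXC, 26.01 ± 9.83 in Kdm2a/b-JmjC and 16.8 ± 0.836 in Kdm2a-CXXC (SD, n = 3 each). Untreated Fbxo27 had 55.1 ± 12.4, 46.2 ± 7.40, 26.7 ± 8.52 and 30.6 ± 2.52 in the same order of lines. Neighbouring promoters within 500 kb, Fbxo27 among them and those under 10 RPM left out, moved in the same direction but less. Their ratios were 1.23 to 2.47, with a median of 1.55, between the 2 lines for which Fbxo17 had 2.86. Those left out ran from 1.04 (Sycn) to 3.41 (Lgals7).

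No F-box promoter passed both thresholds, an adjusted p under 0.05 and a fold over 1.4, in any line after tamoxifen. This was found by limma on log2(calibrated reads + 1), with Benjamini-Hochberg adjustment over all promoters tested. A low-count filter left 61 F-box promoters for Kdm2a/b-JmjC, 60 for Kdm2a/b-CXXC, 61 for Kdm2a-CXXC, 62 for Kdm2b-CXXC, and removed Fbxw2 p2 and Fbxw7 p2 everywhere. Of all promoters tested, limma called 0.0757% in Kdm2a/b-JmjC, while it called 0% for Kdm2a/b-CXXC, 0% for Kdm2a-CXXC, 0% for Kdm2b-CXXC. The quasi-likelihood test of edgeR, run on reads recovered from the deposited values, also called 0 F-box promoters in every line, against 0.664% of all promoters for Kdm2a/b-JmjC cells, 0% elsewhere. Its unadjusted p was under 0.05 for 13, 3, 2 and 0 F-box promoters in the order of lines above, against 20.9%, 4.74%, 8.25% and 0.597% of all promoters. The median F-box promoter followed the median of all promoters, with log2 fold changes of -0.23 (F-box) and -0.21 (all) for Kdm2a/b-JmjC, 0.10 and 0.09 for Kdm2a/b-CXXC, -0.15 and -0.18 for Kdm2a-CXXC, 0.08 and 0.10 for Kdm2b-CXXC. Scaling to the promoter reads themselves (TMM) moved the F-box median to -0.02, 0.01, 0.02 and -0.02. So the shift of F-box promoters in each line was that of the whole promoter set on the spike-in scale, and values below are read against it.

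**Figure D3:**
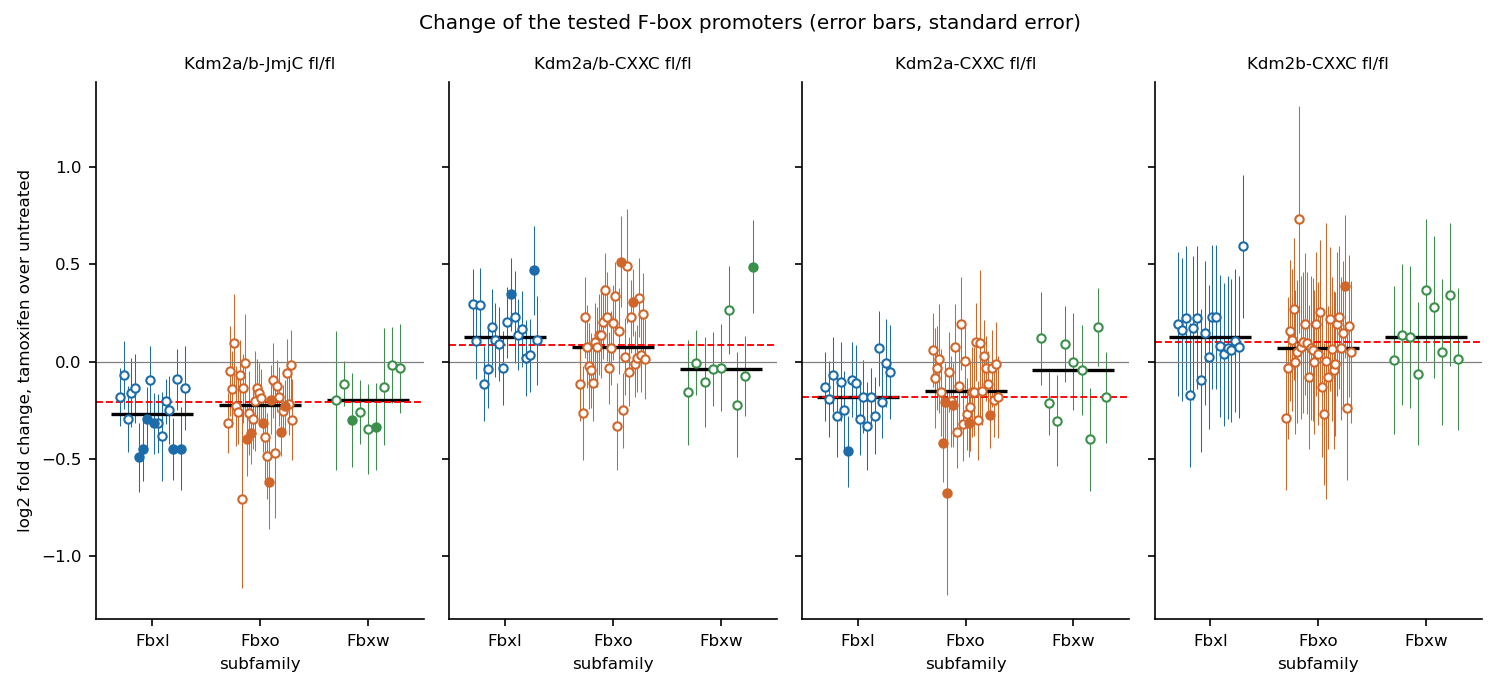
Log2 fold change of each tested F-box promoter after tamoxifen, by subfamily and line, with standard errors. Filled points are promoters whose tamoxifen libraries all lay beyond all untreated libraries, black bars are subfamily medians and the red dashed line is the median of all promoters, -0.21, 0.09, -0.18 and 0.10 from left to right.

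In Kdm2a/b-JmjC, 60 of 61 F-box promoters had lower means after tamoxifen, against 14327 of 17174 of all promoters and 9426 of 10317 open ones. Once the shift was removed by TMM, 29 of the same 61 were higher, against 8485 of 17174 of all promoters. Unadjusted p was under 0.05 for 14 lower and 0 higher promoters, against 20.3% of all promoters lower and 0.262% higher. At 15 promoters (24.6%) every tamoxifen library lay below every untreated one, against 23.2% of all promoters, and at 0 above, against 0.908%. These shares are near the background. Of the 15, 6 were Fbxl, 7 were Fbxo and 2 were Fbxw, and the subfamily medians were -0.27, -0.22 and -0.20 on the log2 scale. Open F-box promoters had a median of -0.21 and intermediate ones -0.26.

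The smallest p values in this line were those of Fbxo47, Fbxl5 and Fbxl16. Fbxo47 had 324, 296 and 295 calibrated reads untreated and 248, 218 and 247 after tamoxifen, a log2 fold change of -0.36 (SE 0.12, adjusted p = 0.0990 by limma). Fbxl5, the iron sensor that degrades IRP2, had 138, 159 and 176 against 106, 117 and 122 (-0.45, SE 0.16, adjusted p = 0.116 by limma). Fbxl16 had 111, 140 and 117 against 87.6, 83.0 and 89.0 (-0.49, SE 0.18, adjusted p = 0.120 by limma). At each of the 3 promoters the groups did not overlap, yet the adjusted p missed the threshold. The fold at Fbxo47 and Fbxl5 was also under 1.4. After TMM the log2 fold changes of the 3 were -0.15, -0.24 and -0.28, with a smallest adjusted p by limma of 0.882 over all F-box promoters.

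In Kdm2a/b-CXXC, 40 of 60 F-box promoters had higher means after tamoxifen and 31 did after TMM. Among all promoters tested these counts were 11166 and 8249 of 16413. Unadjusted p was under 0.05 for 3 higher promoters, 5.00% against 3.58% of all, and for 0 lower ones against 1.07%. At 5 promoters (8.33%) every tamoxifen library lay above every untreated one, against 1.8% of all promoters, and at 0 below, against 0.597%. Those 5 were Fbxw8, Fbxo41, Fbxl7, Fbxl21 and Fbxo47. Subfamily medians were 0.12 for Fbxl, 0.08 for Fbxo and -0.04 for Fbxw. The median over F-box promoters was -0.05 without tamoxifen replicate 1, whose calibrated total of 2.04 M was the highest of that line, so the direction of the shift rested on that library.

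Fbxw8, a partner of CUL7, had 37.5, 43.8, 43.1 and 38.7 calibrated reads untreated and 57.4, 62.0, 54.8 and 56.2 after tamoxifen. All 4 treated libraries stood well above the untreated ones. The log2 fold change was 0.49 (SE 0.24, unadjusted p = 0.0395, adjusted p = 0.9958 by limma) and 0.40 after TMM. Fbxl21 had 112, 117, 121 and 111 against 158, 160, 125 and 146 (0.35, SE 0.19, adjusted p = 0.9958 by limma).

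In Kdm2a-CXXC, 48 of 61 F-box promoters had lower means after tamoxifen, and 28 did after TMM. Among all promoters tested these counts were 14396 and 8984 of 17727. Unadjusted p was under 0.05 for 2 lower promoters (3.28%) and 0 higher ones, against 8% and 0.395% of all promoters. At 7 promoters (11.5%) every tamoxifen library lay below every untreated one, against 13.4% of all, and at 0 above, against 1.12%. The 7 were Fbxl17, Fbxo5, Fbxo21, Fbxo22, Fbxo24, Fbxo28 and Fbxo38, with 0 from Fbxw. Subfamily medians were -0.18 for Fbxl, -0.15 for Fbxo and -0.04 for Fbxw. Without tamoxifen replicate 1 the median over F-box promoters was -0.03, and without untreated replicate 3 it was -0.06, in place of -0.15.

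Fbxl17, Fbxo21 and Fbxo30 had the smallest p in Kdm2a-CXXC. Fbxl17, which removes faulty pairs of BTB proteins, had 246, 279 and 253 calibrated reads untreated and 158, 214 and 197 after tamoxifen (-0.46, SE 0.18, unadjusted p = 0.0116, adjusted p = 0.581 by limma). Fbxo21 had 145, 155 and 165 against 112, 102 and 137 (-0.42, SE 0.20, adjusted p = 0.587 by limma). Fbxo30 had 203, 222 and 239 against 132, 182 and 211 (-0.36, SE 0.19, adjusted p = 0.596 by limma). The groups overlapped at Fbxo30 but not at Fbxl17 or Fbxo21, and without tamoxifen replicate 1 the change of Fbxo30 was -0.17.

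In Kdm2b-CXXC, the calibrated libraries were spread too widely for a fit without pairs to show changes of this size. Part of that spread was shared by libraries of the same number. The median log2 ratio of F-box promoters to the untreated mean was 0.41, -0.32 and -0.09 in the untreated replicates. In the tamoxifen replicates, in the same order, it was 0.52, -0.14 and -0.03. The standard error of the F-box promoters was never under 0.36 on the log2 scale, against a median of 0.18 in Kdm2a/b-JmjC. Unadjusted p was under 0.05 for 0 higher and 0 lower F-box promoters, against 0.519% and 0.151% of all promoters. At 1 promoter, Fbxo6, every tamoxifen library lay above every untreated one (1.61% against 2.13%), and at 0 below, against 0.446%. The F-box median was 0.13 without both libraries numbered 1, but -0.12 without tamoxifen replicate 1 alone, -0.06 without untreated replicate 2 and 0.30 without untreated replicate 1. After TMM, 6 of the 62 F-box promoters had an unadjusted p under 0.05, against 7.74% of all promoters, and 0 were called, with a smallest adjusted p of 0.236.

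Fbxo6, which binds the glycans of misfolded glycoproteins, had 134, 94.2 and 115 calibrated reads untreated and 177, 135 and 136 after tamoxifen (0.39, SE 0.37, adjusted p = 1.00 by limma). Fbxl8 had 61.1, 56.7 and 83.4 against 139, 80.8 and 89.0 (0.59, SE 0.36, adjusted p = 1.00 by limma), and its change was 0.30 without both libraries numbered 1. Fbxo24 had 15.0, 7.08 and 6.15 against 22.3, 15.8 and 9.80, with overlap.

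At 4 promoters the tamoxifen libraries lay below all untreated libraries both in Kdm2a/b-JmjC and in Kdm2a-CXXC, which is 6.56% of the 61 tested in both, against 3.91% of all promoters. These were Fbxl17, Fbxo5, Fbxo28 and Fbxo38. At 0 F-box promoters were the tamoxifen libraries above all untreated ones in 2 lines, a share not computed over all promoters. In single lines it held for only 0.908% to 2.13% of all promoters, so this count says little about F-box promoters. Fbxl17 had 150.2, 164 and 141 calibrated reads in untreated Kdm2a/b-JmjC cells and 139, 83.8 and 117 after tamoxifen (-0.45, SE 0.16, adjusted p = 0.120 by limma). Without tamoxifen replicate 1 of that line, Fbxl17 was called (-0.61, adjusted p = 0.0353 by limma), and without tamoxifen replicate 2 its change was -0.25 (adjusted p = 0.524 by limma). Leaving out tamoxifen replicate 1 called 607 of the 17920 promoters tested, against 13 of 17174 with all libraries. Fbxo5 had 256, 223 and 229 against 217, 188 and 200 in Kdm2a/b-JmjC (-0.23) and 332, 350 and 412 against 281, 293 and 327 in Kdm2a-CXXC (-0.28). After TMM the changes of Fbxo5 were -0.02 and -0.10, so most of the difference at Fbxo5 was the shift shared by all promoters. Fbxo28 changed by -0.40 and -0.22 and Fbxo38 by -0.32 and -0.32 in the 2 lines, and after TMM by -0.19 and -0.05 for Fbxo28 and by -0.11 and -0.14 for Fbxo38. In Kdm2a/b-JmjC the change of Fbxo28 was -0.18 without tamoxifen replicate 3. In Kdm2a-CXXC, leaving out tamoxifen replicate 1 gave -0.14 for Fbxo28 and -0.17 for Fbxo38. Of the 4, Fbxl17 alone kept a log2 fold change beyond -0.2 in both lines after TMM, at -0.24 and -0.28.

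At 3 promoters the tamoxifen libraries lay below all untreated libraries in Kdm2a/b-JmjC and above all of them in Kdm2a/b-CXXC, which is 5.00% of the 60 tested in both, against 0.353% of all promoters. These 3 were picked out for that pattern. Fbxo41, a gene of neurons, had 61.0, 69.8 and 56.8 calibrated reads against 31.0, 50.1 and 42.0 in Kdm2a/b-JmjC (-0.62, SE 0.24, adjusted p = 0.139 by limma). In Kdm2a/b-CXXC it had 45.4, 42.8, 40.3 and 45.5 against 92.3, 65.3, 49.9 and 50.6 (0.51, SE 0.23, adjusted p = 0.9958 by limma). Fbxl7 had 71.1, 97.9 and 71.5 against 65.1, 47.0 and 63.4 (-0.45, SE 0.21) and 49.4, 45.8, 55.3 and 40.7 against 63.1, 68.7, 69.4 and 63.4 (0.47, SE 0.23). Fbxo47, described above for Kdm2a/b-JmjC, had 202, 200.3, 212 and 205 against 311, 269, 233 and 212 in Kdm2a/b-CXXC (0.31, SE 0.17). There the highest untreated and the lowest tamoxifen library both rounded to 212, so the groups were barely apart. The directions held after TMM, at -0.41 and 0.43 for Fbxo41, -0.24 and 0.38 for Fbxl7 and -0.15 and 0.22 for Fbxo47. Without tamoxifen replicate 1 of Kdm2a/b-CXXC the change of Fbxo41 there was 0.33, and without untreated replicate 2 of Kdm2a/b-JmjC that of Fbxl7 was -0.30. None of the 6 changes passed the adjusted threshold, and the difference between lines was not tested. In Kdm2a-CXXC and Kdm2b-CXXC the groups overlapped at all 3.

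**Figure D4:**
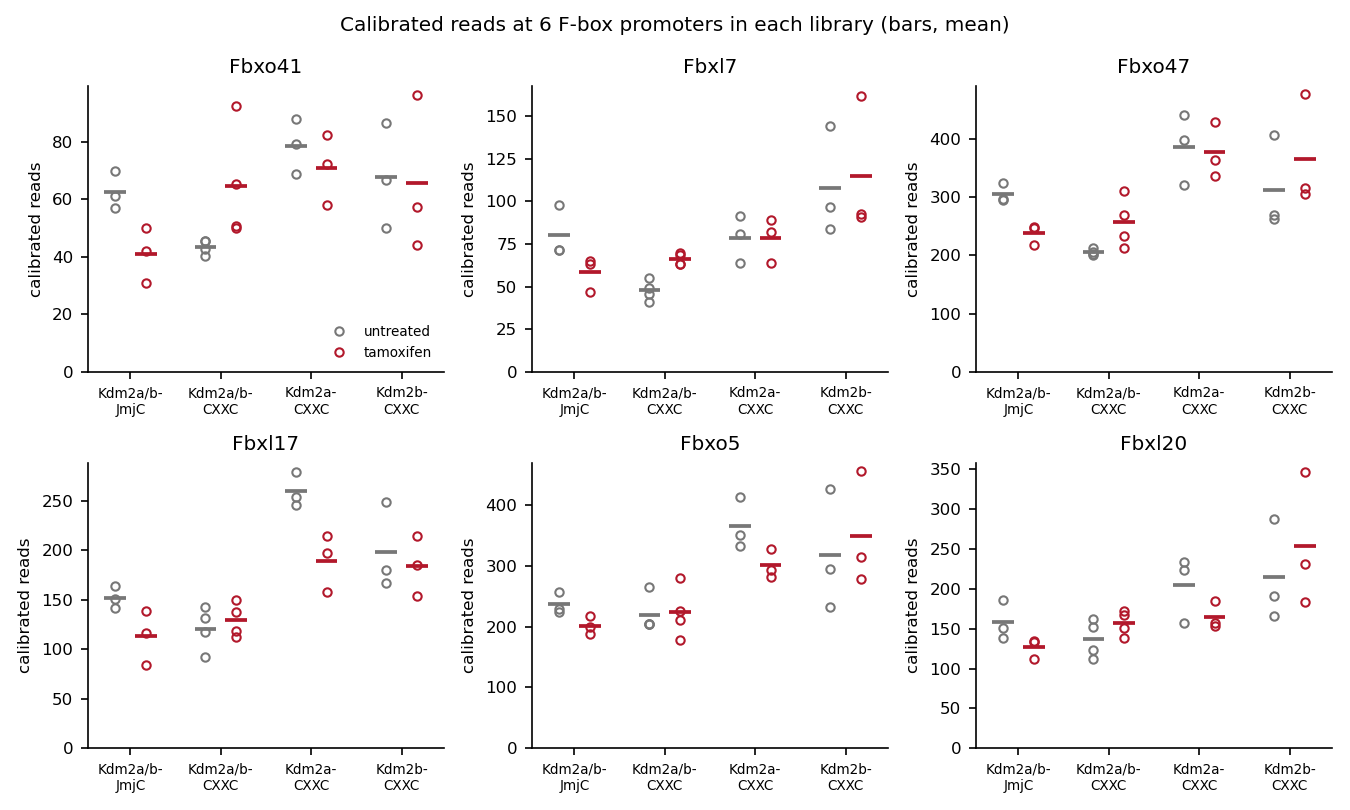
Calibrated reads of 6 F-box promoters in every library, by line, untreated (grey) and tamoxifen (red), with bars at the means. Fbxo41, Fbxl7 and Fbxo47 lie lower after tamoxifen in Kdm2a/b-JmjC and higher in Kdm2a/b-CXXC without overlap, whereas Fbxl17 and Fbxo5 lie lower in Kdm2a/b-JmjC and Kdm2a-CXXC.

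Fbxl20 did not pass the threshold in any line. It had 151, 186 and 138 calibrated reads untreated and 133, 135 and 112 after tamoxifen in Kdm2a/b-JmjC, without overlap (-0.32, SE 0.16, adjusted p = 0.235 by limma). In Kdm2a/b-CXXC it had 123, 162, 112 and 152 against 167, 172, 138 and 151 (0.20, SE 0.18). The changes were -0.29 (SE 0.19) in Kdm2a-CXXC and 0.23 (SE 0.37) in Kdm2b-CXXC, and after TMM they were -0.11, 0.12, -0.11 and 0.13 in the order of lines above.

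The closed promoters had low reads before and after tamoxifen, with group means of 1.31 to 16.1 calibrated reads. Fbxw7 p2 had 0.894 ± 0.780 RPM in untreated Kdm2a/b-JmjC cells and 1.76 ± 0.671 in untreated Kdm2b-CXXC cells (SD, n = 3 each), the lowest and the highest of the 4 lines, and its calibrated mean was at most 4.04 in any group of libraries. Fbxw2 p2 reached 10.2 ± 9.85 calibrated reads in tamoxifen-treated Kdm2a-CXXC cells against 3.69 ± 1.81 untreated (SD, n = 3), within the spread of libraries. Fbxo40 was at 3.61 to 8.42 calibrated reads in every group. Fbxo24 had log2 fold changes of -0.70 (SE 0.46), -0.68 (SE 0.52) and 0.73 (SE 0.58) for Kdm2a/b-JmjC, for Kdm2a-CXXC and for Kdm2b-CXXC, each under 2 standard errors.

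The alternative promoters of Fbxw7 and Fbxw2 kept their order after tamoxifen. Fbxw7 p3 went from 82.4 ± 8.91 to 81.6 ± 10.3 calibrated reads in Kdm2a/b-JmjC (SD, n = 3) and from 86.8 ± 12.7 to 84.4 ± 23.8 in Kdm2a/b-CXXC (SD, n = 4). Fbxw7 p1 went from 32.8 ± 8.15 to 30.02 ± 7.81 and from 37.0 ± 7.96 to 32.8 ± 12.03 in the same lines. Fbxw2 p1 went from 141 ± 29.9 to 116 ± 15.1 and from 124 ± 19.3 to 123 ± 33.5. All these differences were within the spread of libraries.

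Among the partners of F-box proteins, 0 of the promoters of SCF core and neddylation genes and 0 of those of F-box genes under other names were called in any line by limma or edgeR. Their medians were -0.17 and -0.06 for Kdm2a/b-JmjC cells, 0.03 and 0.08 for Kdm2a/b-CXXC cells, against -0.21 and 0.09 for all promoters. The lowest p was that of Ube2r2, a ubiquitin-conjugating enzyme, in Kdm2a-CXXC (-0.58, unadjusted p = 0.00683, adjusted p = 0.581 by limma). In the SCF list, Cdc34 was the 1 promoter of 12 tested whose unadjusted p by limma was under 0.05 for Kdm2a/b-JmjC (-0.42), against 20.3% of all promoters lower. Ube2r2 and Cul1 (-0.40) were the 2 of 13 for Kdm2a-CXXC, against 8%. In the other list it was under 0.05 for 1, Kdm2b, in Kdm2a/b-JmjC (-0.33), where the same 20.3% applies. Accessibility at the Kdm2a and Kdm2b promoters does not check the deletions.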

How the data were processed

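The series holds 26 ATAC libraries and 26 input genomic DNA libraries, the latter not used here. The authors aligned reads with Bowtie 2 to mm10 and dm6, removed reads that mapped more than once and PCR duplicates with SAMtools, and counted mouse reads over 400 bp promoters. Each deposited value is a signal, the reads divided by a size factor from the Drosophila spike-in, corrected by input DNA. The deposited tables also hold DESeq2 comparisons, which were not used.

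Size factors (0.718 to 1.41) and reads were recovered from the steps between deposited values: 100% came out within 0.01 of a whole read. RefSeq IDs gave symbols for 20560 of 20633 promoters. Per line, limma 3.58.1 with a mean-variance trend was fitted to log2(calibrated reads + 1) after filterByExpr of edgeR 4.0.16 in R 4.3.3, over all promoters, and tested on simulated data. A fold on this scale understates changes of low promoters. Called promoters had an adjusted p under 0.05 and a fold over 1.4. Groups came from sample titles, and p-values measure the spread between libraries, which may be technical. Counting error alone understates the spread between libraries, and PCR copies carried no molecular identifiers. Alternatives were TMM scaling, edgeR, a pseudocount of 5, no filter, leaving out each library, other cuts, and the replicate number as a block. Once each library's median was removed, same-numbered libraries correlated at no more than 0.0725, so the main fit did not take numbers as pairs. That check cannot see a shift of whole libraries shared by the same number. In Kdm2a-CXXC and Kdm2b-CXXC the calibrated totals had the same order by number untreated and after tamoxifen.

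Promoters named in the text were those with the 3 smallest p in each line, the 3 highest and lowest of each subfamily, Fbxl20, those whose groups did not overlap in the same direction in 2 lines or in opposite directions, and 6 lists by function. Fbxo15, the list of pluripotent cells, was not analysed here. The members and lists were chosen with earlier results of these data known. The values of 1 Fbxl promoter are not reported here, although it is counted in the totals and medians.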

Additional observations from a re-analysis of the deposited data

Results flagged for a closer look

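Fbxo41, Fbxl7 and Fbxo47 moved down in every tamoxifen library of Kdm2a/b-JmjC and up in every one of Kdm2a/b-CXXC, beyond all untreated libraries. Their log2 fold changes in Kdm2a/b-CXXC exceeded those in Kdm2a/b-JmjC by 1.13, 0.91 and 0.67. None of these changes passed the adjusted threshold in either line. At Fbxo47 in Kdm2a/b-CXXC the highest untreated and the lowest tamoxifen library were equal after rounding. The difference between the lines was not tested, and the 2 lines were calibrated separately.

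Among 68 groups of 4 libraries of the named promoters in Kdm2a/b-CXXC, 2 held a library far from the other 3, where chance gives about 1 in 20. Fbxo5 had 264 calibrated reads in untreated replicate 4 and 204 in each of the others. Fbxw7 p1 had 48.8 in untreated replicate 2 and 31.9 to 34.7 in the others.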

How the results depend on the processing

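With TMM scaling, the median log2 fold change of the F-box promoters in Kdm2a/b-JmjC was -0.0191 in place of -0.23; it removes any shift shared by all promoters. The count of called F-box promoters was 0 in every line under each alternative, except that leaving out libraries of Kdm2a/b-JmjC gave 0 to 1. Without tamoxifen replicate 1, Fbxl17 was called (-0.61, adjusted p = 0.0353 by limma), as were 607 of all 17920 promoters tested. Without tamoxifen replicate 2, Fbxl17 was at -0.25. For Fbxl20 in Kdm2b-CXXC (0.23), leaving out single libraries gave -0.0204 to 0.461, the lowest without tamoxifen replicate 1. Leaving out each library in turn, the F-box medians ran from -0.31 to -0.18 in Kdm2a/b-JmjC, -0.05 to 0.18 in Kdm2a/b-CXXC, -0.22 to -0.03 in Kdm2a-CXXC and -0.12 to 0.30 in Kdm2b-CXXC. Leaving out both libraries numbered 1 in Kdm2b-CXXC was chosen after seeing the data and gave 0 calls. With the replicate block, 0 F-box promoters were called in each line, while over all promoters it called 62 (13 without it) for Kdm2a/b-JmjC. For Kdm2a-CXXC it called 188, for Kdm2b-CXXC 5 and for Kdm2a/b-CXXC 0, each against 0 without it. Under that block Fbxl17 in Kdm2a-CXXC had an adjusted p of 0.0293 by limma and a fold under 1.4. With library medians removed, each library of Kdm2a/b-JmjC correlated best with its own number, which did not hold in the other lines. Stricter cuts left 44 of 52 CpG-rich and 36 of 44 open promoters, and 4 closed ones. With the spread of Kdm2b-CXXC in the fit without the block, a fold of 1.4 lies within 2 standard errors.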
